A study of Mus musculus with 8 samples.

Results

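The bone morphogenetic protein (BMP) pathway and the Id genes were followed through 10 genes of the deposited gene table, chosen by gene name: the Id family (Id1, Id2, Id3 and Id4), the ligands Bmp4 and Bmp7, the receptors Bmpr1a and Bmpr1b, and the inhibitors Bambi and Smad6. Each of the 10 names matched 1 row, among 16096 genes in all, and all 10 passed the filter on low counts. The RNA was from C57BL/6 mouse embryos of embryonic day 16.5, taken from the peripheral retina. Of the 8 libraries, 4 were labelled Pax6alpha-Cre:Ezh2fl/null (conditional knockout, cKO) and 4 Pax6alpha-Cre:Ezh2fl/+ (control). Ezh2 encodes the histone methyltransferase of Polycomb repressive complex 2. Both groups carry the Pax6alpha-Cre driver, which is active in the peripheral retina, and 1 floxed Ezh2 allele. As the genotypes are written, the other allele is null in the cKO embryos, also in cells without Cre, and wild type in the controls. The labels name no embryo or litter for a library, so the p-values cover the spread among these 8 libraries, which may be technical.

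BMP ligands bind a pair of type I and type II receptor kinases, which phosphorylate Smad1, Smad5 or Smad9. These join Smad4, enter the nucleus and switch on target genes, of which the Id genes are among the best known. Id proteins have a helix-loop-helix domain and no DNA-binding region, so they hold partner bHLH factors off DNA and delay differentiation. In the embryonic eye the pathway is known for dorsal patterning of the retina and for its part in lens and ciliary body formation.

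Libraries held 13994825 to 18391647 counts. The 7 retina-defining genes, among them Pax6, Rax, Six3, Six6, Lhx2 and Sox2, were all present, summing to 1705 to 1888 CPM in the labelled-cKO libraries, against 1875 to 2031 CPM in the controls. The whole-gene Ezh2 level was 276, 251.04, 255 and 220.4 CPM (labelled-cKO replicates 1 to 4), against 235, 230.2, 197 and 207 CPM (control replicates 1 to 4). It was not lower in the libraries labelled cKO (log2 0.21, edgeR adjusted p = 0.0701, and exact two-sided permutation p = 0.0857 over 70 assignments). It was called higher with DESeq2 (log2 0.21, adjusted p = 0.0383), with the replicate number as a block (edgeR adjusted p = 0.0250) and without labelled-cKO replicate 4 (log2 0.26, edgeR adjusted p = 0.0129). Which exons were deleted was not stated in the labels, and a whole-gene count does not check a deletion of single exons. Labelled-cKO replicates 2 and 3 had 1874 and 1714 Xist counts and were female; the other 6 libraries, with at most 4, were male. Mitochondrial rRNA took 9.84% to 14.0% of a labelled-cKO library, against 13.7% and 13.5% of control replicates 1 and 3 and 8.72% and 8.19% of control replicates 2 and 4. The 7 lens genes in the table summed to 8.26 CPM in labelled-cKO replicate 2 and 12.4 CPM in control replicate 1, and to at most 2.36 CPM in the other 6.

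Promoter windows from RefSeq (build GRCm38.p6) covered 7 of the 10 genes. Id1, Bmp7 and Bambi had none. The Id2 and Id4 windows are shown because Id2 was lower in the labelled-cKO libraries and Id4 was not called, yet both hold the same letters, GGCGCC, a motif found in BMP response elements. Shown are only bases before the RefSeq start that lie in no GENCODE exon, 5′ to 3′ on the gene's strand. The Id2 stretch is chr12:25096254-25096342 on the minus strand, the Id4 stretch chr13:48260866-48261115 on the plus strand, and capitals mark GGCGCC. The Id2 stretch lies between exons of the GENCODE gene, and the Id4 stretch upstream of the GENCODE gene start.
Id2: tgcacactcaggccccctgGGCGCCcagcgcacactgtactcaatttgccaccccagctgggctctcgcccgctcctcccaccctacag
Id4: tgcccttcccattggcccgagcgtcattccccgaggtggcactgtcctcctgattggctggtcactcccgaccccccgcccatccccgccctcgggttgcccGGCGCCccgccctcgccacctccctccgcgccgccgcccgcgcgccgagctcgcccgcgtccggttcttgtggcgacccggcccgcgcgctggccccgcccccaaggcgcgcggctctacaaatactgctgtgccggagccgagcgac
GGCGCC reads the same on both strands and was found in 11.9% of the 32851 windows of this length. It stood once in each of the Id2, Id4 and Bmpr1a windows. The Smad-binding letters CAGAC, searched on both strands, had 2 matches in the Id3 window and 1 match in each of 2 of the 3 Bmpr1b windows, and stood in 49.6% of all windows. The Id2 window held 21 CpG dinucleotides, the Id3 window 19 and the Id4 window 39. The median over all windows was 7, and 26.5% of them held at least 20. The Bmpr1a window held 48, the Smad6 window 31, the Bmp4 window 12 and the 3 Bmpr1b windows 5 or 6. These matches describe the letters in the windows and nothing of what binds there.

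Id1, Id2 and Id3 were lower and Bmp7 higher in the labelled-cKO libraries, and 6 of the 10 genes were not called. The comparison asks which transcripts differ between the genotypes at this stage. A gene was called at an edgeR quasi-likelihood Benjamini-Hochberg adjusted p under 0.05 over the 15014 genes tested. Of the 10 genes, 3 were called lower, where 3.46% of all genes tested were, and 1 was called higher, where 8.35% were. Of all 15014 genes, 11.8% were called, and 70.7% of those calls were higher (82.5% when only library size was scaled). The same 4 genes had CPM values that did not overlap between the groups, as did 16.3% of all genes tested; 6.21% did not overlap and were lower, and 10.1% did not overlap and were higher. The median log2 fold change over all genes was -0.0074. In bulk tissue, fewer cells of a type and less RNA per cell cannot be told apart.

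**Figure D1:**
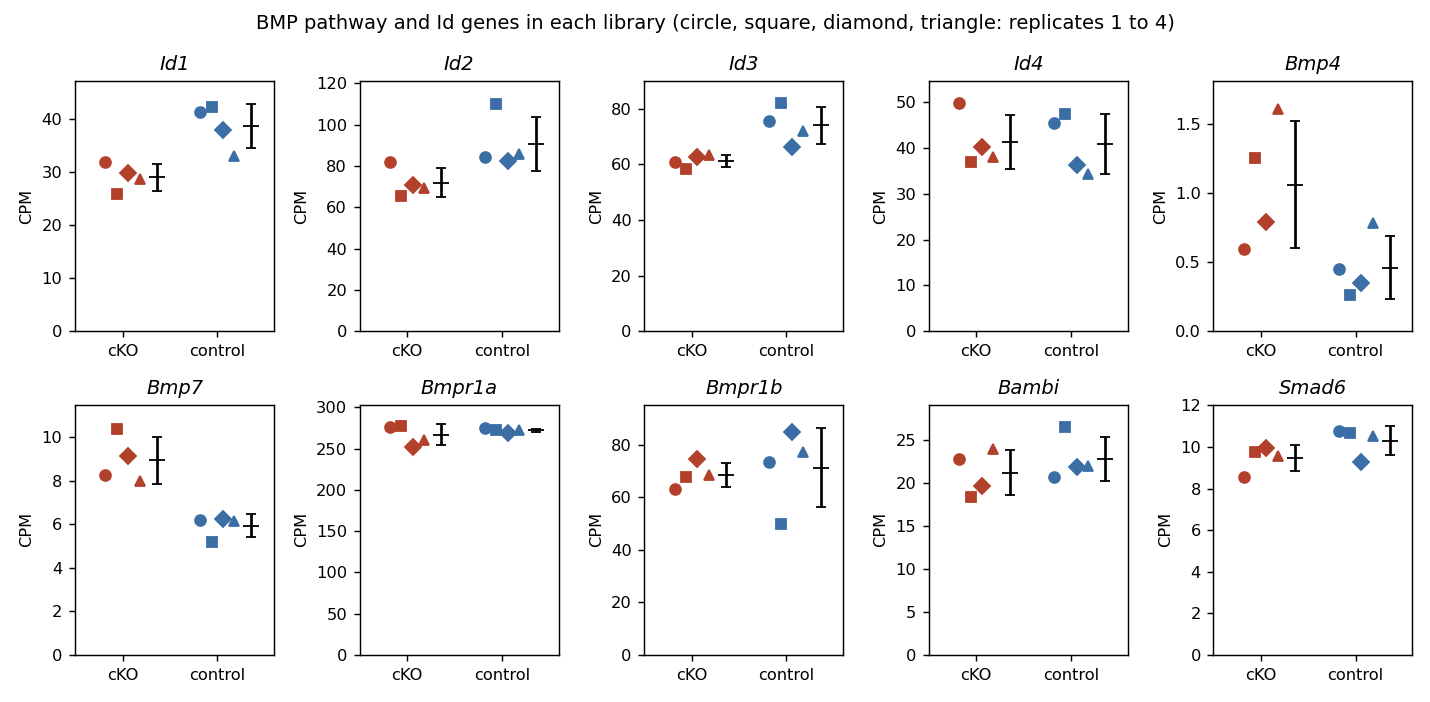
CPM on normalized library sizes for the 10 genes in each library, with labelled-cKO libraries in red at left and controls in blue at right; bars give mean and SD of 4 libraries. Id1, Id2, Id3 and Bmp7 show no overlap between groups, the 4 control values of Bmpr1a lie within a narrow band, and Bmp4 stands at or under 1.61 CPM.

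Id1, a target of BMP signalling in many cell types, had the largest decrease of the 4 Id genes. Id1 (ENSMUSG00000042745, mm10 chromosome 2, 152736251 to 152737410, plus strand) had levels of 32.0, 25.9, 29.8 and 28.7 CPM (labelled-cKO replicates 1 to 4), against 41.4, 42.4, 38.1 and 33.2 CPM (control replicates 1 to 4). Every labelled-cKO library lay below every control, although labelled-cKO replicate 1 and control replicate 4 were close. The mean was 29.1 ± 2.55 CPM in the labelled-cKO group and 38.8 ± 4.14 CPM in the control group (SD, n = 4 each), a log2 fold change of -0.41 (SE 0.082, 95% limits -0.58 to -0.23, edgeR adjusted p = 0.00384). The call held in 19 of 20 alternatives and ended with control replicates 2 and 4 as the only controls (log2 -0.37, edgeR adjusted p = 0.0553).

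Id2, which holds E proteins off DNA in many progenitor cells, was lower by a smaller amount, and its call rested on single libraries. Id2 (ENSMUSG00000020644, chromosome 12, 25093799 to 25097140, minus strand) had levels of 81.8, 65.6, 70.6 and 69.6 CPM (labelled-cKO replicates 1 to 4), against 84.5, 110.0, 82.4 and 85.8 CPM (control replicates 1 to 4). Control replicate 2 stood far above the other 3 controls, and labelled-cKO replicate 1 came within 1 CPM of the lowest control. The mean was 71.9 ± 6.95 CPM in the labelled-cKO group and 90.6 ± 12.9 CPM in the control group (SD, n = 4 each), at log2 -0.33 (SE 0.089, 95% limits -0.52 to -0.14, edgeR adjusted p = 0.0242). Without control replicate 2 the fold change was -0.23 (adjusted p = 0.0620), and the call also ended without labelled-cKO replicate 2 (-0.29), 3 (-0.32) or 4 (-0.32) and with the male libraries alone (-0.26, adjusted p = 0.210).

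Id3, often transcribed together with Id1, was lower by the least of the 3 called Id genes. Id3 (ENSMUSG00000007872, chromosome 4, 136143497 to 136145755, plus strand) had levels of 60.7, 58.4, 62.6 and 63.3 CPM (labelled-cKO replicates 1 to 4), against 75.4, 82.1, 66.3 and 72.0 CPM (control replicates 1 to 4). The labelled-cKO libraries lay within 5 CPM of each other and under all controls. The mean was 61.3 ± 2.19 CPM in the labelled-cKO group and 73.9 ± 6.60 CPM in the control group (SD, n = 4 each), at log2 -0.27 (SE 0.064, 95% limits -0.41 to -0.13, edgeR adjusted p = 0.0117). The call held without any 1 library, and ended with the male libraries alone (-0.25, edgeR adjusted p = 0.0888), when only library size was scaled (-0.25, adjusted p = 0.0580) and in 3 other alternatives.

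Id4, which in other tissues can oppose the other Id proteins, was not called. Id4 (ENSMUSG00000021379, chromosome 13, 48261228 to 48266026, plus strand) had levels of 49.8, 36.9, 40.1 and 38.1 CPM (labelled-cKO replicates 1 to 4), against 45.5, 47.3, 36.2 and 34.3 CPM (control replicates 1 to 4). The groups overlapped over most of their range, and the mean was 41.2 ± 5.85 CPM in the labelled-cKO group and 40.8 ± 6.51 CPM in the control group (SD, n = 4 each). Id4 differed by log2 0.021 (95% limits -0.21 to 0.26, edgeR adjusted p = 0.941), and its sign changed without labelled-cKO replicate 1 (-0.085), control replicate 3 (-0.032) or control replicate 4 (-0.058). Id4 overlaps A330033J07Rik and Gm49291 on the minus strand, and no source used here says if reads were assigned by strand.

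Ratios within a library, which no library scaling can move, were chosen after the values were seen and are given as a description with no test. The FPKM ratio of Id1 to Id4 was 0.921 to 1.078 in the labelled-cKO libraries, against 1.28 to 1.51 in the controls, with no overlap. The ratio of Id2 to Id4 was 2.15 to 2.39 in the labelled-cKO libraries, against 2.43 to 3.27 in the controls, also without overlap. The ratio of Id3 to Id4 was 1.13 to 1.54 in the labelled-cKO libraries, against 1.54 to 1.94 in the controls, where the groups overlapped slightly. The mean log2 differences were -0.43, -0.35 and -0.29. The size of each ratio rests on the gene lengths behind the authors' FPKM, which for Id2 and Id4 are shorter than the GENCODE exons, while the differences between groups do not. The 3 ratios among Id1, Id2 and Id3 differed by log2 -0.14 to -0.061, and their groups overlapped.

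**Figure D2:**
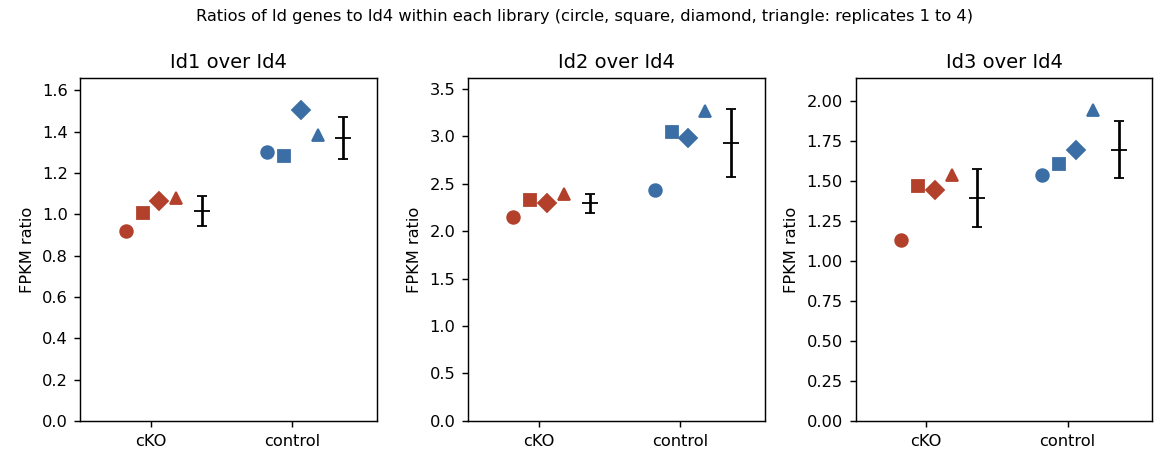
Ratio of the FPKM of Id1, Id2 and Id3 to that of Id4 in each library, with labelled-cKO libraries in red at left and controls in blue at right; bars give the mean and SD of the 4 ratios. The Id1 to Id4 ratio lay between 0.921 and 1.078 in the labelled-cKO libraries and between 1.28 and 1.51 in the controls.

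Over the 8 libraries, Id1, Id2 and Id3 lay closer to each other than to Id4. The root mean square difference between centred log2 CPM profiles was 0.12 between Id1 and Id2, 0.13 between Id1 and Id3 and 0.11 between Id2 and Id3, against 0.21 to 0.23 between each of these and Id4. Among 10186 other genes averaging 10 CPM or more, Gabra3, Cln6 and Sox9 were closest to Id1, at 0.078 to 0.084. Terf1, Bckdhb and Pcnt were closest to Id2, at 0.080 to 0.088, and Pola2, Pard3b and Ocel1 to Id3, at 0.052 to 0.060. These values describe likeness in these libraries, and include the difference between the groups.

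Bmp7, a ligand needed for eye development, was higher in the labelled-cKO libraries. Bmp7 (ENSMUSG00000008999, chromosome 2, 172868012 to 172940321, minus strand) had 154, 149, 139 and 129 counts in labelled-cKO replicates 1 to 4 and 83, 79, 89 and 110 counts in control replicates 1 to 4. On normalized sizes this was 8.28, 10.4, 9.12 and 7.97 CPM in the labelled-cKO libraries, against 6.22, 5.17, 6.24 and 6.13 CPM in the controls. The groups did not overlap, and labelled-cKO replicate 2 was the highest. The mean was 8.93 ± 1.07 CPM in the labelled-cKO group and 5.94 ± 0.513 CPM in the control group (SD, n = 4 each), at log2 0.58 (SE 0.11, 95% limits 0.34 to 0.83, edgeR adjusted p = 0.00272). With the male libraries alone the fold change was 0.45 (edgeR adjusted p = 0.0548), and the call held in the other 19 of 20 alternatives.

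Bmp4, the ligand of the dorsal retina, was counted too rarely for a firm comparison. Bmp4 (ENSMUSG00000021835, chromosome 14, 46383520 to 46390669, minus strand) had 11, 18, 12 and 26 counts in labelled-cKO replicates 1 to 4 and 6, 4, 5 and 14 counts in control replicates 1 to 4. That is 0.591, 1.253, 0.787 and 1.61 CPM in the labelled-cKO libraries, against 0.449, 0.262, 0.351 and 0.779 CPM in the controls. Control replicate 4 stood above labelled-cKO replicate 1, so the groups overlapped. The log2 fold change was 1.13 with wide limits (0.29 to 1.97, edgeR adjusted p = 0.0824), and 1.17 with DESeq2 as run here. The log2 ratio in the authors' deposited table is 0.69, which may have been computed otherwise and may not be a like measure. Bmp4 passed without labelled-cKO replicate 1 (1.35, edgeR adjusted p = 0.0368), without control replicate 4 (1.56, adjusted p = 0.0398) and with the replicate number as a block (1.18, adjusted p = 0.0344), and in none of the other 17 alternatives. It overlaps Gm15217 and Gm15222 on the plus strand.

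Markers of other tissues that could hold these ligands moved in part. Over all genes tested, 8.35% were called higher and 3.46% lower. Of 9 mesenchyme genes tested, 3 were higher, namely Twist1, Foxc1 and Pdgfra. Pdgfra, the most abundant of these 3, was at 14.0 ± 1.35 CPM in the labelled-cKO libraries, against 6.99 ± 0.918 CPM in the controls. Twist1 had 31, 20, 27 and 19 counts in labelled-cKO replicates 1 to 4 and 0, 3, 1 and 2 counts in the controls. Foxc1 had 39, 36, 24 and 35 counts in labelled-cKO replicates 1 to 4 and 4, 10, 1 and 5 counts in the controls. Twist1 and Foxc1 passed the filter on low counts only through the labelled-cKO libraries, so a call of either could only be higher. The pericyte gene Pdgfrb and the collagen genes Col1a1 and Col1a2 were not called. The 10 mesenchyme genes summed to 40.6 to 95.6 CPM in the labelled-cKO libraries, against 39.6 to 71.0 CPM in the controls. Of 9 ciliary margin genes tested, 5 were higher and 2 lower, and the 10 in the table summed to 415 to 450.3 CPM in the labelled-cKO libraries, against 367 to 406 CPM in the controls. Its most abundant genes moved in opposite directions. Zic1 was higher, at 134 CPM in labelled-cKO and 76.1 CPM in control libraries. Col9a1 was lower, at 144 CPM in labelled-cKO and 200 CPM in control libraries. Of 5 pigment epithelium genes tested, none was called, and the 6 in the table summed to 11.2 to 23.6 CPM in the labelled-cKO libraries, against 10.4 to 37.8 CPM in the controls, with Mlana and Rpe65 absent from the table. Of the 10 lens genes, 1 was tested and not called, and Bmp7 was at log2 0.53 without the pair of libraries with lens counts. No row of the table sums to less than 18 counts, so a marker at 0 in all 8 libraries could only be absent from it. The part of mesenchyme and ciliary margin in the ligand result was not tested.

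The type I receptors Bmpr1a and Bmpr1b were not called. Bmpr1a (ENSMUSG00000021796, chromosome 14, 34410734 to 34503341, minus strand) had levels of 276, 278, 252 and 260.3 CPM (labelled-cKO replicates 1 to 4), against 275, 272, 269 and 272 CPM (control replicates 1 to 4). The controls varied by 0.801% (coefficient of variation) and lay inside the range of the labelled-cKO libraries. The log2 fold change was -0.029, with 95% limits of -0.12 to 0.067 (edgeR adjusted p = 0.767). Bmpr1a overlaps Gm17110 on the plus strand.

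Bmpr1b, a receptor of the ventral retina, was the more variable of the pair. Bmpr1b (ENSMUSG00000052430, chromosome 3, 141837136 to 142169425, minus strand) had levels of 63.2, 67.9, 74.5 and 68.6 CPM (labelled-cKO replicates 1 to 4), against 73.5, 49.9, 84.8 and 77.4 CPM (control replicates 1 to 4). Control replicate 2 was the lowest of all 8 libraries, and the other 3 controls were at or above most labelled-cKO values. The log2 fold change was -0.059 (95% limits -0.31 to 0.19, edgeR adjusted p = 0.825).

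The inhibitors Bambi and Smad6, which BMP signalling itself induces in many cells, were not called either. Bambi, a receptor-like protein without a kinase (ENSMUSG00000024232, chromosome 18, 3507923 to 3516404, plus strand), had levels of 22.8, 18.4, 19.6 and 24.0 CPM (labelled-cKO replicates 1 to 4), against 20.7, 26.5, 21.8 and 22.0 CPM (control replicates 1 to 4). The groups overlapped, at log2 -0.10 (95% limits -0.30 to 0.10, edgeR adjusted p = 0.598), and with the male libraries alone the value was 0.037. Smad6, an inhibitory Smad (ENSMUSG00000036867, chromosome 9, 63953076 to 64022059, minus strand), had levels of 8.54, 9.75, 9.97 and 9.58 CPM (labelled-cKO replicates 1 to 4), against 10.8, 10.7, 9.26 and 10.5 CPM (control replicates 1 to 4). Its groups overlapped through control replicate 3, at log2 -0.13 (95% limits -0.32 to 0.064, edgeR adjusted p = 0.437). These limits include decreases as large as those of Id3.

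**Figure D3:**
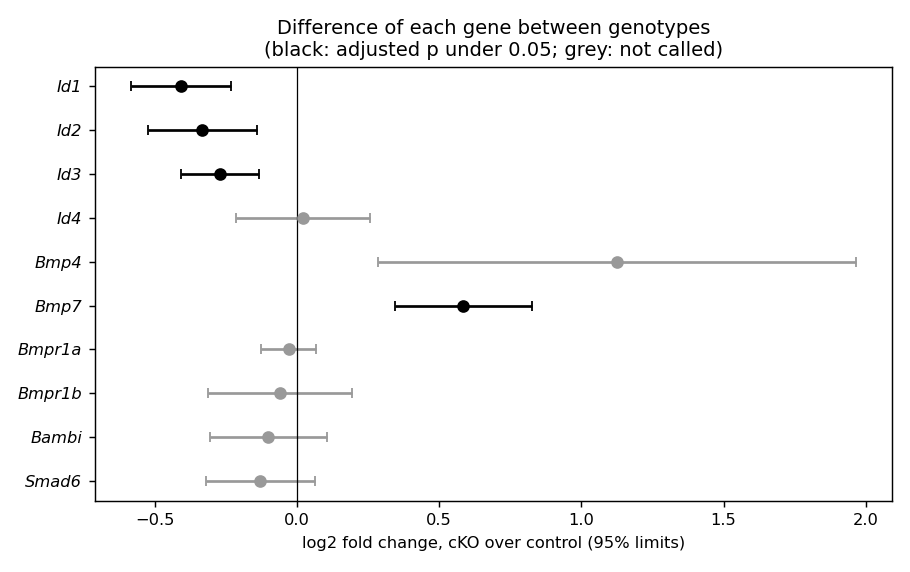
log2 fold change of each of the 10 genes, labelled cKO over control, with 95% limits; black genes passed an adjusted p under 0.05 and grey ones did not. Id1, Id2 and Id3 lie at -0.41, -0.33 and -0.27, Bmp7 at 0.58, and Bmp4 has the widest limits, 0.29 to 1.97.

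Levels between genes were compared per length, as the authors' FPKM. In the labelled-cKO libraries Id2 was at 57.1 ± 6.13 FPKM, Bmpr1a at 42.3 ± 1.53, Id3 at 34.5 ± 2.04, Id1 at 25.3 ± 2.61, Id4 at 25.0 ± 3.73, Bmpr1b at 11.6 ± 0.880, Bambi at 4.24 ± 0.608, Smad6 at 2.97 ± 0.203, Bmp7 at 2.23 ± 0.216 and Bmp4 at 0.480 ± 0.211 (SD, n = 4). In the controls Id2 was at 70.9 ± 12.3 FPKM, Bmpr1a at 42.5 ± 1.90, Id3 at 41.0 ± 4.78, Id1 at 33.1 ± 3.41, Id4 at 24.4 ± 3.99, Bmpr1b at 11.8 ± 2.32, Bambi at 4.48 ± 0.652, Smad6 at 3.19 ± 0.306, Bmp7 at 1.46 ± 0.107 and Bmp4 at 0.207 ± 0.108 (SD, n = 4). The order was the same in both groups. Id1 and Id4 did not differ beyond their spread in the labelled-cKO libraries, nor did Bmpr1a and Id3 in the controls. The FPKM imply a length of 1271 bases for Id2 and 1661 for Id4, while the exon unions of GENCODE M21 hold 2438 and 3849. On those unions Id2 would be at 29.8 FPKM in labelled-cKO and 37.0 FPKM in control libraries, under Bmpr1a and Id3 in both. Id4 would be at 10.8 FPKM in labelled-cKO and 10.5 FPKM in control libraries. On the FPKM scale both ligands were below both receptors in every library.

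Outside the 10 genes, the pathway was read from 6 lists, chosen with earlier results of these data known. Of 71 genes tested in the lists, 11 were called higher and 8 lower, so 26.8% were called, where 11.8% of all genes tested were, and their median log2 fold change was 0.047. Levels are means ± SD of the 4 libraries of a group. Of 9 further ligands and related factors tested, 2 were higher and 1 lower (33.3% called, median 0.081). Gdf10, also called Bmp3b, stood at 1.997 ± 0.358 CPM in the labelled-cKO libraries, against 0.787 ± 0.288 CPM in the controls (log2 1.35, edgeR adjusted p = 0.00221). Bmp1, a procollagen protease and no BMP ligand, was at 25.2 ± 1.46 CPM in labelled-cKO and 21.04 ± 1.31 CPM in control libraries (log2 0.26). Gdf1, a ligand of the Nodal branch, was at 15.0 ± 2.07 CPM in labelled-cKO and 19.0 ± 1.503 CPM in control libraries (log2 -0.34). The calls of Bmp1 and Gdf1 were lost in 8 and 10 of 20 alternatives.

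Among 9 further receptors and co-receptors tested, 2 were higher and none lower (22.2% called, median 0.013). Acvr2a, a type II receptor of activins and BMPs, was at 121 ± 5.86 CPM in the labelled-cKO libraries, against 106 ± 4.53 CPM in the controls (log2 0.20, edgeR adjusted p = 0.0152), a call lost in 6 of 20 alternatives. The co-receptor Rgma was at 9.86 ± 0.619 CPM in labelled-cKO and 8.11 ± 0.336 CPM in control libraries (log2 0.29, adjusted p = 0.0485), a call lost in 16 of 20 alternatives. The type II receptor Bmpr2 was at 75.6 ± 6.19 CPM in labelled-cKO and 75.0 ± 5.15 CPM in control libraries (log2 0.013, 95% limits -0.13 to 0.16).

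The secreted BMP antagonist Nbl1 was higher in the labelled-cKO libraries. Of 18 extracellular modulators tested, 3 were higher and 1 lower (22.2% called, median 0.19). Nbl1, a DAN-family antagonist, was at 4.57 ± 0.0692 CPM in the labelled-cKO libraries, against 2.35 ± 0.317 CPM in the controls (log2 0.94, SE 0.14, edgeR adjusted p = 0.000273). The Nbl1 call held in all 20 alternatives. The follistatin-like gene Fstl5 was at log2 0.42 and its relative Fstl4 at -0.47. The Fstl4 call was lost in 5 of 20 alternatives. Noggin (Nog) was not tested, with 9, 12, 10 and 11 counts in labelled-cKO replicates 1 to 4 and 2, 5, 4 and 8 counts in control replicates 1 to 4.

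Of 16 Smads and intracellular regulators tested, none was higher and 1 was lower (median -0.025), that is 6.25%, where 11.8% of all genes tested were called. The lower gene was Skil, which encodes the Smad corepressor SnoN, at 320.5 ± 4.34 CPM in the labelled-cKO libraries, against 390.4 ± 15.2 CPM in the controls (log2 -0.28, SE 0.045, edgeR adjusted p = 0.000622). Of the Smads that BMP receptors phosphorylate, Smad1 was at 70.4 ± 1.69 CPM in labelled-cKO and 71.8 ± 2.14 CPM in control libraries (log2 -0.029), Smad5 at 162 ± 8.50 CPM in labelled-cKO and 157 ± 5.29 CPM in control libraries (log2 0.047), and Smad9 at 4.62 ± 0.419 CPM in labelled-cKO and 3.53 ± 0.399 CPM in control libraries (log2 0.40, adjusted p = 0.0701). The common partner Smad4 was at 147 ± 1.90 CPM in labelled-cKO and 152 ± 2.67 CPM in control libraries (log2 -0.050). None of these 4 was called in any of the 20 alternatives.

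Other genes known as BMP targets moved in both directions. Of 8 tested, 3 were higher and 1 lower (50% called, where 11.8% of all genes tested were, median 0.20). Hey1, also a Notch target, was at 72.1 ± 4.63 CPM in the labelled-cKO libraries, against 51.0 ± 0.801 CPM in the controls (log2 0.50, edgeR adjusted p = 2.87e-05). Tbx5, a dorsal retinal factor that depends on BMP4 in the chick, was at 17.1 ± 3.47 CPM in labelled-cKO and 12.1 ± 1.24 CPM in control libraries (log2 0.50). Gata2 was at 1.63 ± 0.307 CPM in labelled-cKO and 0.416 ± 0.115 CPM in control libraries (log2 1.92). It passed the filter on low counts only through the labelled-cKO libraries, so a call of Gata2 could only be higher. The bHLH gene Atoh8 was at 14.3 ± 2.14 CPM in labelled-cKO and 20.8 ± 2.51 CPM in control libraries (log2 -0.55, edgeR adjusted p = 0.00308). Msx1 and Msx2 were left out by the filter. Msx1 had 41, 30, 18 and 9 counts in labelled-cKO replicates 1 to 4 and 8, 3, 3 and 3 counts in control replicates 1 to 4, and Msx2 had 8, 15, 10 and 16 counts in the labelled-cKO replicates, against 4, 3, 1 and 4 counts in the controls. With no filter both were called higher, at log2 2.40 and 1.91 (edgeR adjusted p = 0.00437 and 0.0115). The CPM values of Msx1 overlapped between the groups, and the control counts of both genes were mostly near a floor of 3 counts.

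**Figure D4:**
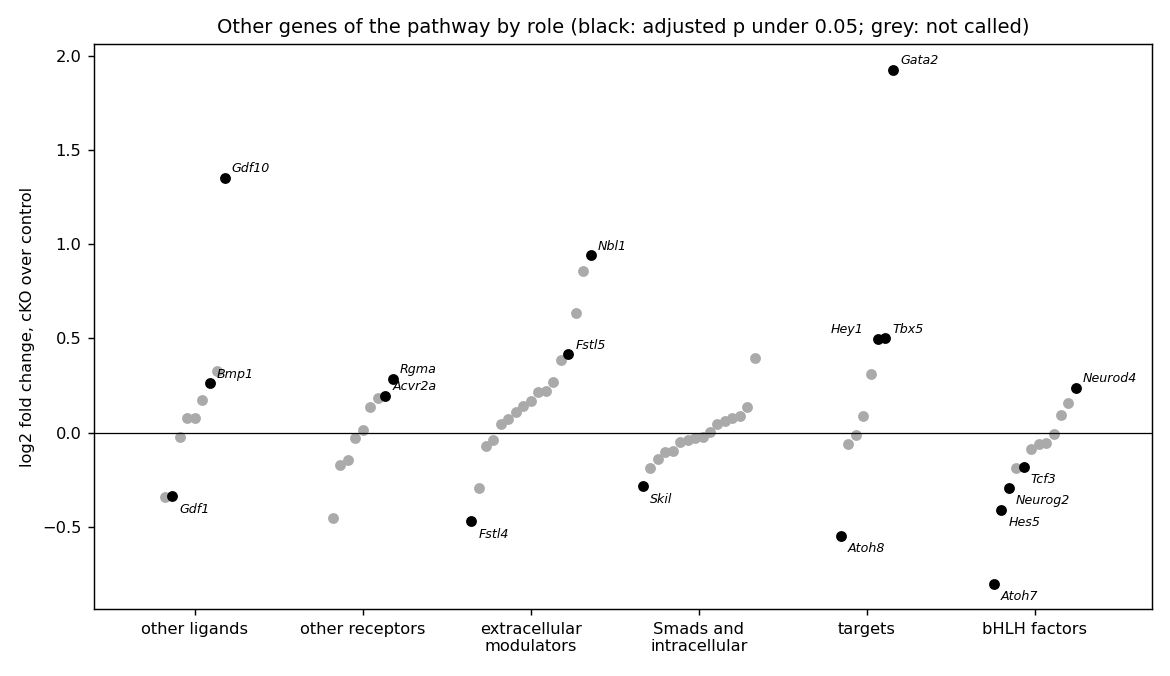
log2 fold change, labelled cKO over control, of the genes tested in each of 6 lists, ordered by value within a list; black genes passed an adjusted p under 0.05 and are named, grey ones did not, and 1 extracellular modulator is not drawn. Nbl1 stands at 0.94 among the extracellular modulators, and Skil at -0.28 among the Smads and intracellular regulators.

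The bHLH factors that Id proteins bind or act beside were lower in part. Of 12 tested, 1 was higher and 4 lower (41.7% called, where 11.8% of all genes tested were, median -0.072). The E protein gene Tcf3, a direct Id partner, was at 111 ± 7.94 CPM in the labelled-cKO libraries, against 126 ± 1.76 CPM in the controls (log2 -0.18, edgeR adjusted p = 0.0308), a call lost in 11 of 20 alternatives. Atoh7, needed for ganglion cells, was at 47.6 ± 8.34 CPM in labelled-cKO and 82.8 ± 9.09 CPM in control libraries (log2 -0.80, adjusted p = 0.000124). Neurog2, a proneural factor, was at log2 -0.29 and the Notch target Hes5 at -0.41. Neurod4 was at 319.6 ± 34.2 CPM in labelled-cKO and 270.9 ± 14.2 CPM in control libraries (log2 0.24, adjusted p = 0.0337), a call lost in 10 of 20 alternatives.

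Cell types known to express Id genes were read beside the decrease. The 5 endothelial genes in the table summed to 264 to 313 CPM in the labelled-cKO libraries, against 330.1 to 359.7 CPM in the controls, a sum made almost wholly of Kdr, which retinal progenitors also express (281 CPM in the labelled-cKO libraries, against 332 CPM in the controls, log2 -0.24). Of 4 endothelial genes tested, 1 was higher and 1 lower, where 8.35% of all genes tested were called higher and 3.46% lower. Pecam1, not called, was at 0.597 CPM in labelled-cKO and 0.524 CPM in control libraries. Cdh5, not tested, was at 0.474 CPM in labelled-cKO and 0.322 CPM in control libraries. Flt1 leaned the other way, at 1.53 CPM in labelled-cKO and 2.50 CPM in control libraries (log2 -0.69, edgeR adjusted p = 0.0669, not called). Tek, Tie1 and Esam were absent from the table. Of 5 Müller glia and astrocyte genes tested, 3 were higher and 1 lower, with sums of 802 to 886 CPM in labelled-cKO and 879.6 to 979 CPM in control libraries. These sums were made mostly of Glul (587 CPM in labelled-cKO and 665 CPM in control libraries) and Slc1a3 (236 CPM in labelled-cKO and 250 CPM in control libraries). The 3 higher genes added little to them. Of 7 microglia genes tested, 2 were higher and none lower, with sums of 39.7 to 45.1 CPM in labelled-cKO and 29.3 to 37.5 CPM in control libraries. The 7 erythroid genes summed to 94.1 to 885 CPM in labelled-cKO and 153 to 1320 CPM in control libraries, and none of the 6 tested was called. Of the retina-defining genes, Pax6, Rax, Six3, Six6, Lhx2 and Sox2 were not called. The part of cell composition in the Id result was not tested.

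**Figure D5:**
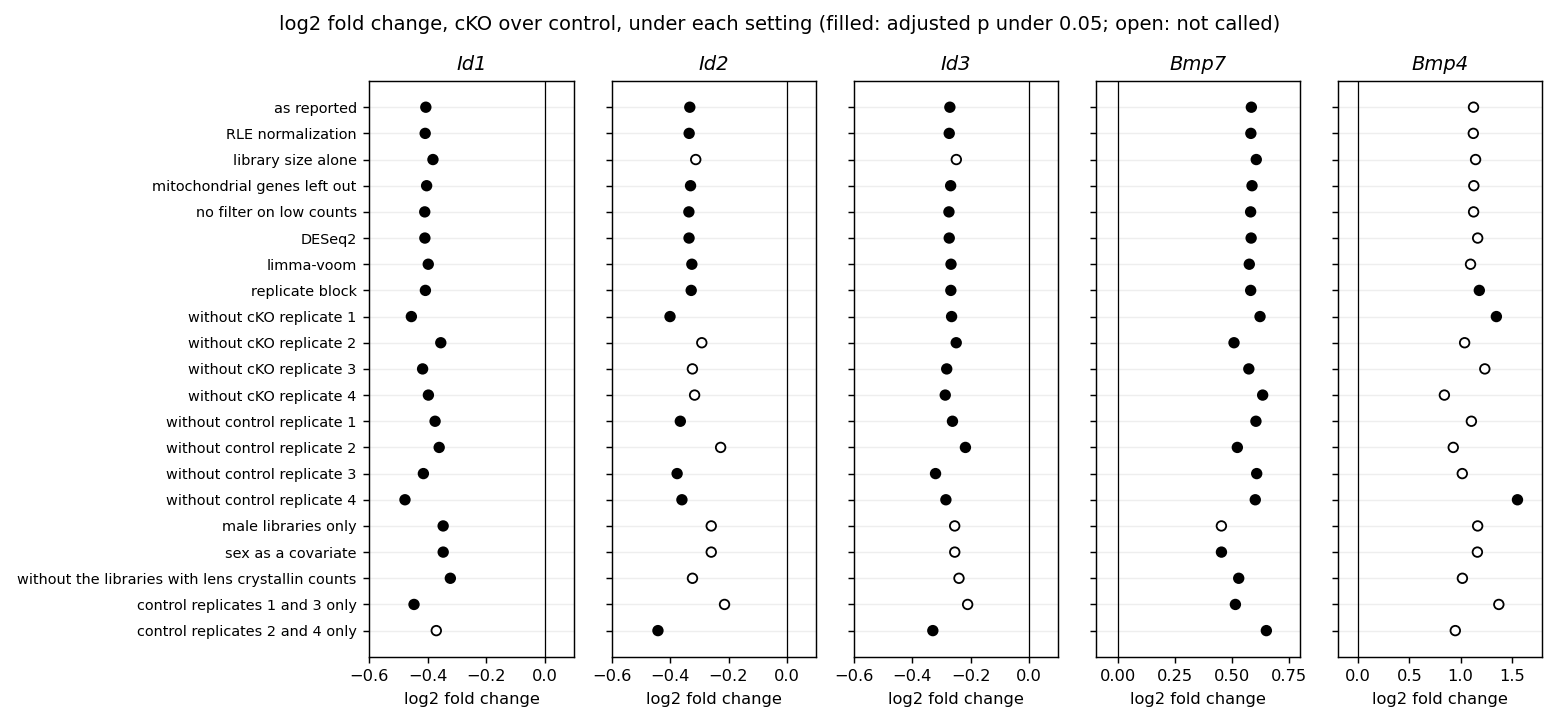
log2 fold change, labelled cKO over control, of Id1, Id2, Id3, Bmp7 and Bmp4 as reported and under each of 20 alternatives; filled points passed an adjusted p under 0.05 and open ones did not. All values of Id1, Id2 and Id3 lie below 0 and all values of Bmp7 and Bmp4 above 0, and Id2 has the most open points of the 4 called genes.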

How the data were processed

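The submitters' processing notes name Novoalign 2.08.01, the build mm10 and DESeq2. Not given in the sources used here were the counter, the annotation release and the strand setting. Counts were deposited as integers, 1 per gene and library, and no row sums to less than 18. The authors' FPKM columns are per length and counted reads, and were used for levels between genes. The authors' log2 ratio column was used once, while the authors' adjusted p column, whose scale has no name (taken as a score), entered no call. The genes followed and the lists were chosen with earlier results of these data known.

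Counts were tested with edgeR 4.0.16 (R 4.3.3): filterByExpr (minimum count 10), TMM (factors 0.955 to 1.04), glmQLFit and glmQLFTest, 4 against 4 libraries, no covariate, adjusted over 15014 genes. CPM use normalized library sizes, except sums over marker lists, which use total counts. Standard errors follow from the F statistic. A floor of 3 counts is 0.161 to 0.225 CPM and covers counting error only. Coordinates came from GENCODE M21 on mm10, promoter windows from RefSeq. Named list genes were the called ones, at most 4 per list and direction, and Bmpr2, Smad1, Smad4, Smad5, Smad9 and Nog; some genes that this rule or the marker lists name are not reported here. Alternatives were other normalizations, no filter, DESeq2 1.42.0, limma 3.58.1 (voom), a replicate block, leaving out libraries, and embryo sex read from Xist. On counts simulated for 15014 genes, with changes in genes of at least 5 CPM, 60% of changes of log2 0.32, 96% of log2 0.58 and 100% of larger ones were called.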

Additional observations from a re-analysis of the deposited data

Results flagged for a closer look

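In 3 of 20 sets of 4 values (10 genes in 2 groups), 1 library stood far from the other 3, where about 1 in 20 such sets is marked by chance. Control replicate 2 was the highest control for Id2, at 110.0 CPM against 82.4 to 85.8 CPM in the other 3, a gap of 0.878 of the group's range. Control replicate 2 was the lowest control for Bmp7, at 5.17 CPM against 6.13 to 6.24 CPM, a gap of 0.891 of the range. Control replicate 3 was the lowest control for Smad6, at 9.26 CPM against 10.5 to 10.8 CPM, a gap of 0.831 of the range.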

How the results depend on the processing

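Id1, Id2, Id3, Bmp4, Bmp7, Bmpr1a and Smad6 kept their direction in all 20 alternatives. Scaling by library size alone ended the calls of Id2 (-0.31) and Id3 (-0.25). The male libraries alone (2 labelled cKO, 4 controls) ended those of Id2 (-0.26), Id3 (-0.25) and Bmp7 (0.45) and turned Bambi (0.037), and sex as a covariate gave -0.26 for Id2 and -0.25 for Id3, both not called, and 0.037 for Bambi. Without the libraries with lens counts Id2 was at -0.32 and Id3 at -0.24, both not called, and Smad5 at -0.012. With control replicates 1 and 3 as the only controls, an alternative chosen after seeing the data, Id2 and Id3 were at -0.21 and -0.21, not called, and Bmpr2 at -0.058. With control replicates 2 and 4 Id1 was at -0.37, not called, Bmpr1b at 0.10 and the Id1 to Id2 ratio at log2 0.068. Both of these fits hold 2 controls. Leaving out 1 library gave -0.40 to -0.23 for Id2, -0.085 to 0.099 for Id4, 0.84 to 1.56 for Bmp4, -0.20 to 0.033 for Bmpr1b and -0.033 to 0.066 for Bmpr2. The list genes called numbered 11 higher and 8 lower, but 4 lower with the male libraries, 7 higher and 4 lower with sex as a covariate, 5 lower without the libraries with lens counts, 5 higher and 5 lower with control replicates 1 and 3, and 7 higher and 4 lower with control replicates 2 and 4. With exon union lengths, also chosen after seeing the data, Id2 was at 29.8 FPKM in labelled-cKO and 37.0 FPKM in control libraries, and Id4 at 10.8 FPKM in labelled-cKO and 10.5 FPKM in control libraries. Same-numbered libraries correlated at 0.21, -0.031, -0.043 and 0.26 in their deviations from the group means, against -0.298 to 0.224 between differently numbered ones. These values do not settle whether replicate numbers pair the samples. The replicate block called Bmp4 (1.18) and changed no other of the 10 calls. The cause of these changes was not tested. Depth limits Bmp4 most, with at most 26 counts in a library.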
